A study of Populus ussuriensis with 18 samples.

Results

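WOX11/12a and WOX5a are genes of the WUSCHEL-related homeobox (WOX) family of plant transcription factors, and both are studied in adventitious rooting, the formation of roots from a stem or leaf. Their transcripts were measured in the base of poplar stem cuttings over the first 96 h. The members were chosen by identifier as loci known from Populus trichocarpa, Potri.013G066900 for WOX11/12a and Potri.008G065400 for WOX5a, 2 of the 36385 loci listed in the tables. The tables pair no identifier with a gene name, so the names rest on that choice. No genome or annotation was used here, and positions, exons and neighbouring genes are therefore not given.

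The material was Populus ussuriensis, a poplar, grown as plantlets in vitro for 2 weeks on a Murashige and Skoog medium with 20 g/L sucrose, at 25 °C and under a day of 16 h light and 8 h dark. All groups share this culture, and each differs from the others by the time after cutting alone, as far as the labels say. The basal 0.5 cm of the stem piece was taken at 0, 0.5, 1, 2, 6, 12, 24, 48 and 96 h, with 2 libraries of total RNA at each of the 9 time points, 18 in all. Whether a pair of libraries stands for separate plants is not stated, so the p-values rest on library-to-library spread alone, and this may be technical. No uncut stem of the later times is among the groups, and the time of day is not given, so a response to the cut and a change with the hour or with plant age cannot be told apart.

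In Arabidopsis, WOX11 and its close relative WOX12 respond to auxin at a wound and act when competent cells near the vascular tissue become root founder cells. WOX5 acts later in that sequence: it marks the dividing root primordium and then the quiescent centre, the organising cells of the root tip, where it keeps the neighbouring stem cells undifferentiated. In poplar, WOX11/12 genes are known to promote adventitious rooting of cuttings.

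Levels are given as FPKM, that is reads corrected for the length of the transcript and for the depth of its library, which allows the 2 genes to be compared per length. The read totals, recovered from the step size of low FPKM values, were between 28460172 and 30651830 per library after cutting, and 21914571 and 25026198 at 0 h. Each member has 1 listed transcript, of 768 bp for WOX11/12a and 546 bp for WOX5a by the same steps, so that 1 read is worth about the same FPKM in every later library. The 0 h tables differ in kind from the later ones. Where a locus has several listed transcripts, the leading one took a median share of 93.4% and 93.5% in the 0 h libraries and of 50.5% to 50.8% in those after cutting. Among the 26765 loci tested, 6.68% were listed at 0 in both 0 h libraries, against 0.374% to 1.19% at any later time point. A member listed at 0 at 0 h is for that reason given only as listed at 0, with no limit and no fold.

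WOX11/12a was not detected up to 2 h after cutting, was present in every library from 6 h on, was highest at 48 h and was lower again at 96 h. It was listed at 0 in both 0 h libraries. It had 0 reads in all 6 libraries of 0.5, 1 and 2 h. At the depth of these 6 libraries a count of 0 allows a level of up to 0.129 to 0.137 FPKM per library (3 reads, counting error only). In bulk tissue of this kind, more cells with the transcript and more transcript per cell cannot be told apart.

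At 6 h WOX11/12a had 1.15 and 2.18 FPKM, from 26 and 51 reads. Both libraries lay above the limit that 0 reads leave at 2 h. At 12 h it had 10.2 and 5.21 FPKM, from 224 and 115 reads. At 24 h it had 17.3 and 14.3 FPKM, from 389 and 323 reads. The libraries of 6, 12 and 24 h did not overlap between these time points. With 2 libraries each this order alone is no test, and the share of all loci that show it is not given here. At 48 h WOX11/12a reached 24.9 and 24.3 FPKM, from 571 and 567 reads, the highest level of the course. At 96 h it had 5.99 and 6.59 FPKM, from 141 and 153 reads. These lie between the 2 libraries of 12 h, so that 96 h and 12 h overlap.

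**Figure D1:**
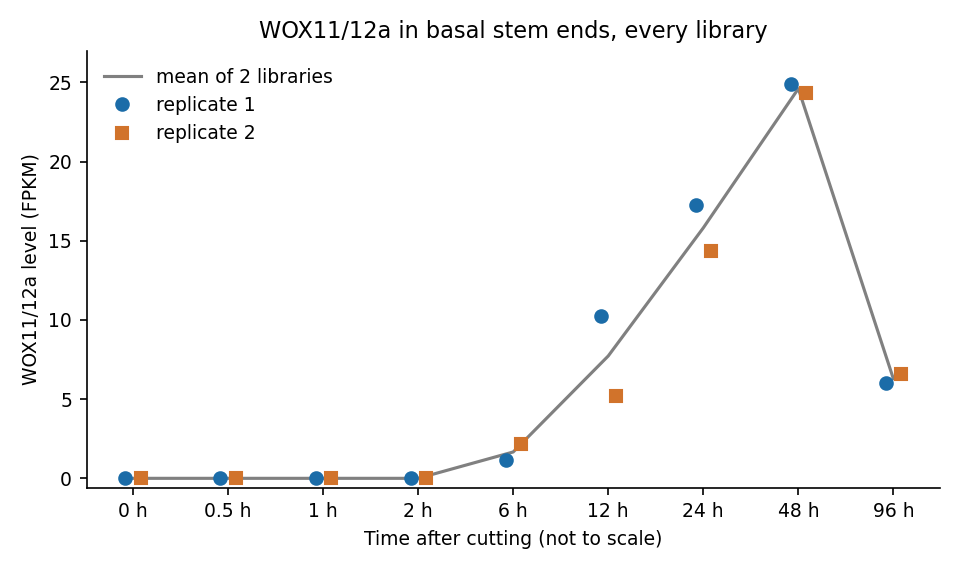
WOX11/12a level in FPKM (vertical axis, linear) in each of the 18 libraries, by time after cutting (horizontal axis, not to scale). Circles and squares are replicates 1 and 2, and the line joins the means of 2 libraries. All 8 libraries up to 2 h are at 0, both 48 h libraries are near 25 FPKM and both 96 h libraries are near 6 FPKM.

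The mean level of WOX11/12a was 1.66 ± 0.724 FPKM at 6 h and 7.73 ± 3.57 FPKM at 12 h (SD, n = 2). It was 15.8 ± 2.07 FPKM at 24 h and 24.6 ± 0.385 FPKM at 48 h, and at 96 h it was 6.29 ± 0.425 FPKM (SD, n = 2). The highest level that 3 reads in 1 early library would give, 0.137 FPKM, served as a base. The ratio of the mean to this base was 12.2 for 6 h, 56.5 for 12 h, 116 for 24 h, 180 for 48 h and 46.0 for 96 h. Only the base is a limit, and the means are taken without their spread. The lower libraries of 6 h and 12 h had 1.15 and 5.21 FPKM, so these ratios are not lower bounds for single libraries. The gene also moved up within the distribution of all levels. It lay above 21.0% of the 26765 loci tested at 6 h, above 50.8% at 12 h, above 71.6% at 24 h and above 81.5% at 48 h. At 96 h it was back above 43.1% of them. Its 48 h mean was above the upper quartile of the loci tested, which was 18.1 FPKM, and its 96 h mean was below their median of 8.01 FPKM.

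**Figure D2:**
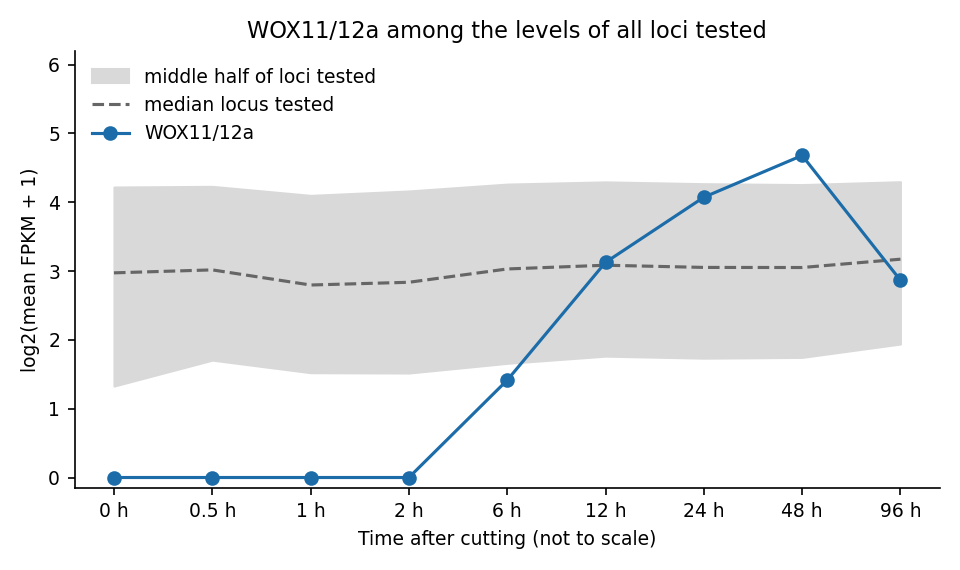
Level of WOX11/12a as log2(mean FPKM + 1) at the 9 time points (points and solid line), with the median (dashed) and the range between the quartiles (grey band) of the 26765 loci tested. WOX11/12a lies at 0 up to 2 h, reaches the median locus at 12 h and lies above the grey band at 48 h alone.

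The changes were tested with limma, a linear model fitted to log2(FPKM + 1) of all loci with at least 1 FPKM in at least 2 libraries. P-values were adjusted by the Benjamini-Hochberg method over these 26765 loci, and an adjusted p below 0.05 was called a change. WOX11/12a differed among the 8 time points after cutting (limma F test, adjusted p 2.00e-10), as did 91.3% of the loci tested. Over all 9 time points it differed too (limma F test, adjusted p 1.17e-10), as did 95.8% of the loci. A call over the course is therefore common, and the direction and size in each interval say more about WOX11/12a.

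From 2 h to 6 h WOX11/12a rose (log2 fold change 1.39, SE 0.23, limma adjusted p 0.000151), in an interval in which 34.2% of the loci were called higher. From 6 h to 12 h it rose again (log2 fold change 1.68, SE 0.23, limma adjusted p 0.000168), where 14.3% of the loci were called higher. The ratio of the mean FPKM was 4.64 between 12 h and 6 h. In this interval WOX11/12a had the 144th highest change of the 26765 loci. From 12 h to 24 h it rose by 1.00 on the log2 scale (SE 0.23, limma adjusted p 0.00698), where 8.80% of the loci were called higher, and the ratio of the means was 2.05.

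The call from 12 h to 24 h rests on single libraries. Without 12 h replicate 2, the lower of its pair, the log2 fold change was 0.57 (limma adjusted p 0.0895), and without 24 h replicate 1 it was 0.88 (limma adjusted p 0.0616). From 24 h to 48 h the mean was 1.56 times as high, but this difference was not called (log2 fold change 0.61, 95% interval 0.12 to 1.10, limma adjusted p 0.172), in an interval in which 2.41% of the loci were called higher. Both 48 h libraries lay above both 24 h libraries, which with 2 libraries each is no test of a difference. The difference passed the threshold when the 4 libraries compared were fitted alone (limma adjusted p 0.0185) and in limma-voom on recovered reads (limma adjusted p 0.0423), so whether the level still moved between 24 h and 48 h depends on the fit.

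From 48 h to 96 h WOX11/12a fell by 1.81 on the log2 scale (SE 0.23, limma adjusted p 4.58e-05), where 9.78% of the loci were called lower. The 96 h mean was 0.256 times the 48 h mean. In this interval WOX11/12a had the 115th most negative difference of the 26765 loci. The 96 h level was also below that of 24 h, whole days apart (log2 fold change -1.20, SE 0.23, limma adjusted p 0.00115), where 11.4% of the loci were called lower. It remained above that of 6 h (log2 fold change 1.48, SE 0.23, limma adjusted p 8.13e-05), where 30.5% of the loci were called higher.

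**Figure D3:**
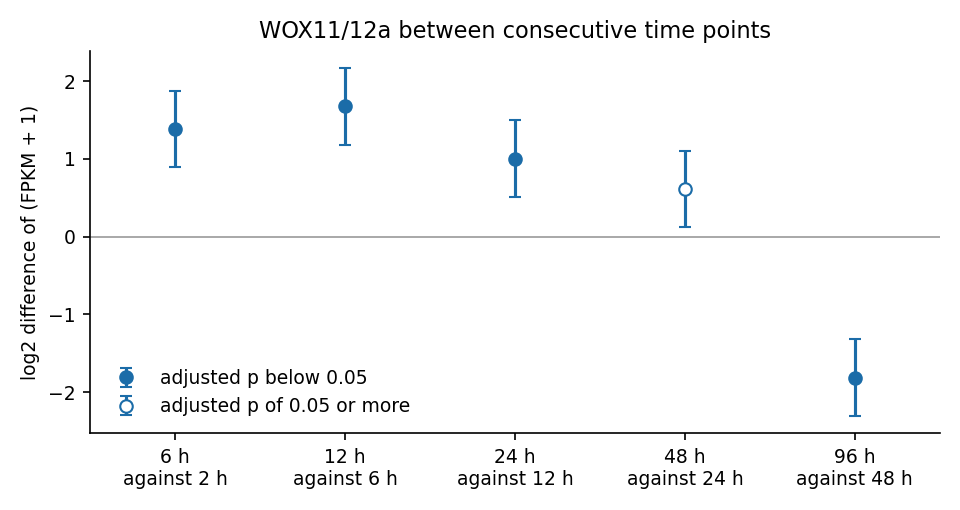
Log2 difference of (FPKM + 1) of WOX11/12a between consecutive time points (later against earlier, horizontal axis), with 95% intervals from limma. Filled points have an adjusted p below 0.05: the 3 intervals from 2 h to 24 h lie above 0, the open point of 48 h against 24 h did not pass, and 96 h against 48 h lies below 0.

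The order of the WOX11/12a levels was 48, 24, 12, 96 and 6 h from the highest, followed by the earlier time points at 0. Of the neighbours in this order, 48 h and 24 h missed the adjusted threshold in the fit of all libraries, although the interval of their difference lay above 0 (limma, unadjusted p 0.0181). For 96 h and 12 h the interval of the difference included 0 (log2 fold change -0.20, 95% interval -0.69 to 0.29, limma adjusted p 0.548; 15.4% of the loci were called lower). The direction of that difference rests on the 12 h libraries: without replicate 2 of 12 h the 96 h level was called lower (log2 fold change -0.63, limma adjusted p 0.0397), and without replicate 1 it was above that of 12 h and not called (log2 fold change 0.23, limma adjusted p 0.451). In each of 4 time points both libraries are at 0 and add no spread to the estimate for this gene. In a fit of the 10 libraries from 6 h on, chosen after seeing the data, the SE was 0.26 in place of 0.23. The adjusted p was then 0.00135 for 12 h against 6 h, 0.0195 for 24 h against 12 h and 0.000562 for 96 h against 48 h (limma).

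Against 0.5 h, a base that does not use the 0 h tables, WOX11/12a was called higher at each of the 5 time points from 6 h on (limma, adjusted p between 9.62e-10 and 0.000114). The share of loci called higher against 0.5 h was 31.4%, 33.7%, 32.0%, 34.2% and 40.4% at these 5 time points in order of time. The log2 fold change was 4.68 at 48 h and stood at rank 76 from the highest of the 26765 loci. Against 0 h it was called higher at the same 5 time points (limma, adjusted p between 4.92e-10 and 9.39e-05). There 36.8%, 37.5%, 35.0%, 36.9% and 42.4% of the loci were called higher at 6, 12, 24, 48 and 96 h. Since the base is 0 in both cases, these fitted fold changes depend on the pseudocount of 1. The ratios of the means given above use no pseudocount, but they leave out the spread of the means. Their base comes from the early libraries, so they do not extend to 0 h.

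The time points were also joined into an early phase of 0.5, 1 and 2 h, a middle phase of 6 and 12 h and a late phase of 24, 48 and 96 h. WOX11/12a was higher in the late than in the early phase (log2 fold change 3.87, SE 0.13, limma adjusted p 2.80e-12), where 51.0% of the loci were called higher. It was higher in the middle than in the early phase (log2 fold change 2.22, SE 0.15, limma adjusted p 5.60e-09; 45.2% of the loci were called higher). It was also higher in the late than in the middle phase (log2 fold change 1.64, SE 0.15, limma adjusted p 3.96e-07; 28.4% of the loci were called higher). The median of all loci between the late and the early phase was 0.23 on the log2 scale, and 0.07 after quantile normalization. Relative to that median WOX11/12a was higher by 3.64, and by 3.70 after quantile normalization.

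A course from no reads to a clear level was rare among the loci. Of the 36385 listed, 3051 had 0 reads in all 6 libraries of 0.5 to 2 h, and 13 of these were above 0 in all 10 libraries from 6 h on. Only 2 of the 13 had at least 1 FPKM in all 10, WOX11/12a and Potri.006G038100. Both were also listed at 0 in both 0 h libraries. This criterion was set after the values of WOX11/12a were seen, and 1 of its 6 h libraries, at 1.15 FPKM, lies just inside it. Potri.006G038100 had mean levels of 2.13, 5.27, 5.74, 7.82 and 8.40 FPKM at 6, 12, 24, 48 and 96 h, and so was not lower at 96 h than at 48 h. Among the 13 loci WOX11/12a had the highest 48 h mean and the third highest 6 h mean, and 8 of the 13 had a 48 h mean under 1 FPKM.

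Replicates of WOX11/12a differed most at 12 h and at 6 h. At 12 h the higher library had 1.97 times the FPKM of the lower one. Among 5884 loci within 1.5-fold of that level, the median ratio of the libraries was 1.14, and 1.43% had a ratio as large. At 6 h the ratio was 1.89, and 11.0% of 3234 loci of like level had a ratio as large. At 24, 48 and 96 h the ratio was 1.20, 1.02 and 1.10.

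The high library of WOX11/12a at 12 h was not the one in which most other rising loci were higher. Here 4-fold refers throughout to the mean FPKM + 1. Of 268 other loci at least 4-fold higher at 24 h than at 6 h, 30.6% were higher in 12 h replicate 1, the library with more WOX11/12a, than in replicate 2. Of 205 loci at least 4-fold lower at 24 h than at 6 h, 54.1% were higher in replicate 1, and over all loci tested it was 49.7%. At 6 h, of 647 other loci at least 4-fold higher at 12 h than at 2 h, 65.7% were higher in 6 h replicate 2, which had more WOX11/12a, as were 37.0% of 673 loci at least 4-fold lower and 55.7% of all loci tested. At 24 h, of 215 other loci at least 4-fold higher at 48 h than at 12 h, 57.2% were higher in 24 h replicate 1, the library with more WOX11/12a, as were 64.8% of 88 loci at least 4-fold lower and 45.5% of all loci tested. At 6 h and 24 h most of the rising loci were thus higher in the library with more WOX11/12a, and at 12 h most were lower there. Most of the falling loci were higher in that library at 12 h and 24 h, but not at 6 h. The part of these differences between libraries in the level of WOX11/12a was not tested.

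WOX5a was detected at a trace level and most often in the late phase, and its earliest read, 1 at 2 h, places no onset. It was listed at 0 in both 0 h libraries. After cutting it had 29 reads in all, in 9 of 16 libraries, and its highest level was 0.368 FPKM. It thus never reached the minimum of 1 FPKM and was not part of the main test. The filter of at least 1 FPKM in at least 2 libraries left out 9620 of the 36385 loci. A count of 0 allows up to 0.180 to 0.192 FPKM in the 7 later libraries at 0, more than the lowest levels measured late, so no single library shows that WOX5a is absent.

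WOX5a had 0 reads in both libraries of 0.5 h and of 1 h. At 2 h it had 1 and 0 reads, and at 6 h again 1 and 0 reads. At 12 h it had 5 and 0 reads, which is 0.322 and 0 FPKM. Up to 12 h it was thus seen in replicate 1 alone. At 24 h it had 3 and 2 reads, which is 0.187 and 0.125 FPKM. At 48 h it had 6 reads in each library, which is 0.368 and 0.362 FPKM. At 96 h it had 1 and 4 reads, which is 0.0598 and 0.242 FPKM. WOX5a was above 0 in all 6 late libraries and in 1 of 6 early ones, and its highest mean fell at 48 h, the time of the highest WOX11/12a mean.

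**Figure D4:**
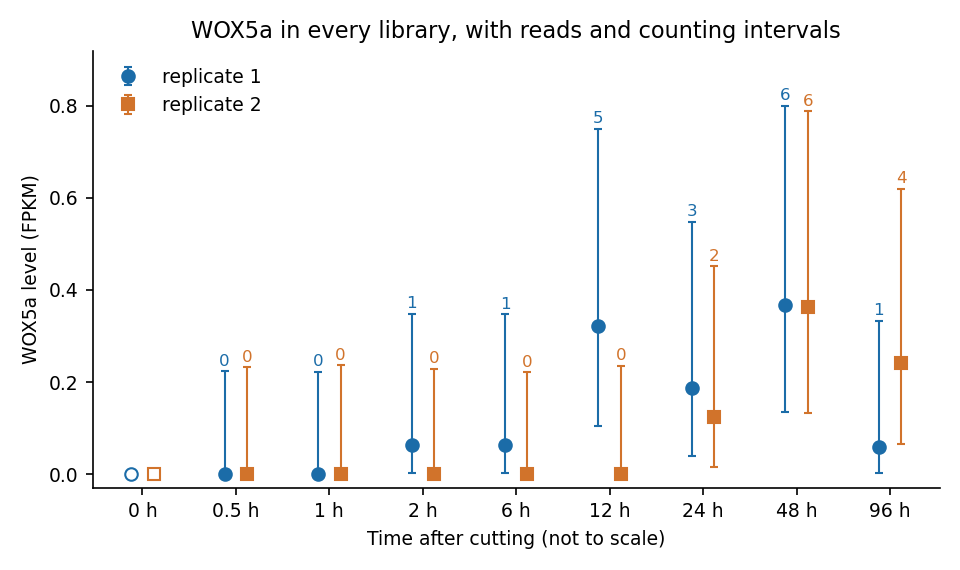
WOX5a level in FPKM (vertical axis, linear) in each library by time after cutting (horizontal axis, not to scale). Filled symbols carry the number of reads and the exact 95% Poisson interval of that count, which covers counting error only; the open 0 h symbols are listed at 0. Intervals of single libraries overlap throughout, and all 6 libraries from 24 h on are above 0.

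Summed over libraries, WOX5a had 22 reads in the late phase, which is 0.224 FPKM (exact 95% Poisson interval 0.141 to 0.339), 6 reads in the middle phase, which is 0.0939 FPKM (0.0344 to 0.204), and 1 read in the early phase, which is 0.0103 FPKM (0.000262 to 0.0576). The late and the early interval do not overlap. By libraries, log2(FPKM + 1) was 0.285 ± 0.148 in the late phase and 0.0146 ± 0.0357 in the early phase (SD, n = 6 each; exact permutation test, two-sided, p = 0.00433, adjusted p = 0.00433 over 3 such tests). The 6 libraries of a phase come from different time points, so they are not replicates of the same condition. The lowest late library, at 0.0598 FPKM, lies just under the highest early one, at 0.0625 FPKM, and each of the 2 rests on 1 read. In a limma fit of every listed locus WOX5a was called higher in the late than in the early phase as well (log2 fold change 0.27, SE 0.06, limma adjusted p 0.00247), where 39.7% of the 36385 loci were called higher.

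The same fit called WOX5a among the 8 time points after cutting (limma F test, adjusted p 0.0289), as it did 71.2% of the loci. The call was lost in 12 of the 18 fits that left out 1 library, namely either library of 0.5, 1, 2, 6, 24 or 48 h, with adjusted p up to 0.150. From 24 h to 48 h and from 48 h to 96 h the level of WOX5a could not be told apart at this depth, since 5, 12 and 5 reads give intervals of 0.0507 to 0.365, 0.189 to 0.637 and 0.0488 to 0.351 FPKM.

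Per length, WOX11/12a was far more abundant than WOX5a in every library in which WOX11/12a was present. In the late phase it was 69.3 times as abundant (exact 95% interval 45.6 to 111, counting error only). The ratio was 48.2 (20.4 to 149) at 12 h, 101 (43.2 to 313) at 24 h, 67.4 (38.4 to 131) at 48 h and 41.8 (17.7 to 130) at 96 h. These intervals overlap, and a change of the ratio from 12 h to 96 h was not tested. The difference between the genes, as log2(FPKM + 1) of WOX5a minus that of WOX11/12a, was -3.58 ± 0.733 in the late phase and 0.0146 ± 0.0357 in the early phase (SD, n = 6 each). The late phase minus the early phase came to -3.60, and all 6 late libraries lay below all 6 early ones (exact permutation test, two-sided, p = 0.00216, the smallest these groups allow, adjusted p = 0.00325 over 3 tests). For WOX11/12a alone the same test also gave p = 0.00216 (exact permutation test, adjusted p = 0.00325). WOX11/12a had 0 reads in every early library and WOX5a never exceeded 0.368 FPKM, so the difference mostly restates the rise of WOX11/12a. The 6 libraries of a phase come from different time points and are not replicates of the same condition. These p-values therefore describe the split of the libraries and not replicate error. On the scale of log2(FPKM + 1) WOX11/12a moved more than WOX5a. The low level of WOX5a leaves it little room on this scale, and which gene changed more in proportion was not tested.

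Other loci followed WOX11/12a closely, and likeness was measured by Pearson's r of log2(FPKM + 1) over the 16 libraries after cutting, as a description. The libraries share time points and replicates, and 702 of 17420 loci with at least a 2-fold range of FPKM + 1 had an r of 0.9 or more. The most alike was Potri.001G013000 (r 0.99). Its mean was 2.16 ± 0.188 FPKM at 6 h, 34.0 ± 4.38 FPKM at 24 h and 8.78 ± 0.218 FPKM at 96 h (SD, n = 2 each), and at 48 h its libraries had 54.3 and 35.9 FPKM. Unlike WOX11/12a it was above 0 before 6 h, with 0.0670, 0.220 and 0.520 FPKM at 0.5, 1 and 2 h. Like WOX11/12a it was higher in replicate 1 of 12 h, with 19.1 FPKM, than in replicate 2, with 11.9 FPKM. Both libraries entered the r by which this locus was chosen, so that likeness is part of the choice. The least alike was Potri.014G058100 (r -0.97), whose mean was 7.06 ± 1.31 FPKM at 2 h, 0.436 ± 0.0679 FPKM at 48 h and 1.24 ± 0.156 FPKM at 96 h (SD, n = 2 each).

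For WOX5a the most alike locus was Potri.002G137900 (r 0.92), and 2 of 17421 loci had an r of 0.9 or more. Its mean was 0.231 ± 0.0232 FPKM at 2 h, 3.29 ± 1.03 FPKM at 24 h, 10.4 ± 0.251 FPKM at 48 h and 3.90 ± 1.34 FPKM at 96 h (SD, n = 2 each). At 12 h it had 2.93 FPKM in replicate 1 and 0.378 FPKM in replicate 2, the library without a WOX5a read. Both libraries entered the r by which this locus was chosen. The least alike was Potri.015G036800 (r -0.88), whose mean was 0.354 ± 0.0347 FPKM at 48 h, against 3.27 ± 0.947 FPKM at 0.5 h (SD, n = 2 each). These values of r rest on the 29 reads of WOX5a. The function of the 4 loci is not given in the tables.

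**Figure D5:**
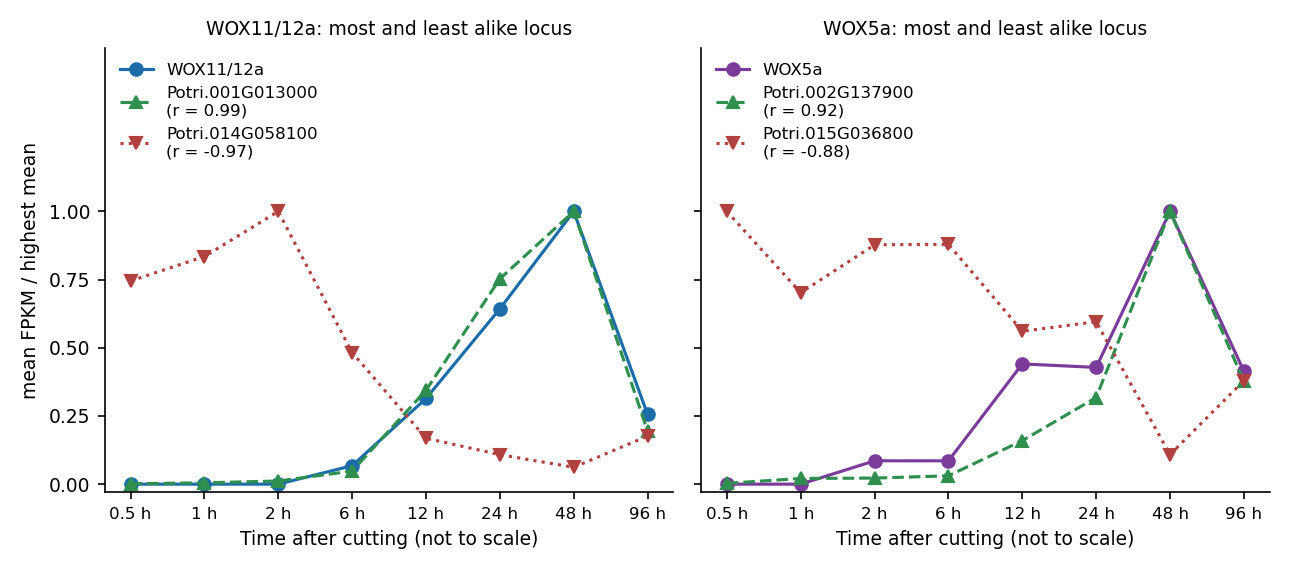
Mean level at each later time point divided by the highest mean of the same locus (vertical axis, linear), for each gene with its most and least alike locus; r is Pearson's over 16 libraries. WOX11/12a and Potri.001G013000 run together from 6 h to 96 h, and WOX5a and Potri.002G137900 share the 48 h maximum.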

How the data were processed

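Each deposited table gives the authors' FPKM of every listed transcript in 1 library. The column is headed FPKM at 0 h, per the file headers, and carries the sample title in the later tables, whose values step as FPKM of whole reads. The submitters' processing notes list Bowtie2 2.2.3 and HISAT2 2.1.0. The counting tool, genome build and annotation: not given in the sources used here. Every table ends at transcript 65535, within identifiers of prefix 17, and loci beyond that were not analysed here. FPKM were summed per locus. Read totals were searched that turn low values into whole-number lengths, then for each transcript above 0 in at least 6 later libraries the shortest length from 60 to 17000 bp that gives whole reads within 0.01; all 60197 such transcripts gave one. Intervals cover counting error only.

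Loci with at least 1 FPKM in at least 2 libraries (26765) were fitted as log2(FPKM + 1) with limma 3.58.1 in R 4.3.3: 1 mean per time point, all 18 libraries, intensity trend and robust variances, two-sided, adjusted within each comparison. The limma fit was tested on simulated counts in which a small set of well-covered loci changed at 1 time point alone. That setting covers neither genes without reads at some time points nor levels as low as that of WOX5a. WOX5a lies below the filter and was fitted with all 36385 loci; exact permutation tests over 6 late and 6 early libraries used Python 3.11.15. The fit of WOX5a, its test per member, the fit from 6 h on and limma-voom on reads were chosen after seeing the data. The comparisons of 96 h with 12 h and with 6 h follow the order of the levels. Besides the members, the locus with the highest and that with the lowest Pearson r to each was named. These were taken among loci tested with at least a 2-fold range of FPKM + 1. Potri.006G038100 was named after its values were seen. Lists of other WOX, auxin, root and cell type marker genes were written as names, for which no table of identifiers was at hand, and were not analysed here. The members and lists were chosen with earlier results of these data known.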

Additional observations from a re-analysis of the deposited data

How the results depend on the processing

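For WOX11/12a, 23 limma results were recomputed under 621 combinations of result and setting: another pseudocount or scaling, no filter, other sets of libraries, other variance settings, transcripts as deposited, a replicate block, limma-voom on recovered reads, and each library left out. The call held in 616, many of which left out a library outside the comparison. There the fold change cannot move, so the count is no measure of robustness. The direction turned in 1, 96 h against 12 h without 12 h replicate 1 (0.231, limma adjusted p 0.451), where neither fit made a call; over the libraries left out it lay between -0.627 and 0.231. The 5 changed calls concern 24 h against 12 h, 48 h against 24 h and 96 h against 12 h, with the values given beside these results, and their cause was not tested. The adjusted p of the F test over the 8 time points after cutting lay between 6.28e-11 and 5.00e-08. Fold changes against time points at 0 depend on the scale. On the log2 scale 6 h against 2 h was 4.08 with a pseudocount of 0.1, 6.19 in limma-voom and 1.11 without 6 h replicate 2, and late against early was 7.08 with that pseudocount, 9.26 in limma-voom and 3.78 after quantile normalization. For WOX5a the planned fit gave no value, since the locus lies below the filter. Its F test in the fit of every listed locus gave adjusted p between 0.00120 and 0.150 with 1 library left out, and between 0.0208 and 0.0467 in 7 other settings. Its late against early difference was called in all 26 alternatives (limma adjusted p between 0.000176 and 0.0123). Some of these left out a library outside the comparison, where the fold change cannot move, so this count is no measure of robustness either. The difference between the genes lay between -5.60 and -3.47 in 14 alternatives. Titles number the libraries 1 and 2 at each time point. Of 36 correlations between time points of the replicate 1 minus replicate 2 differences, 3 were over 0.1 (range -0.197 to 0.21). The data thus do not show that the numbers pair the libraries, and a weak pairing could go unseen. With a replicate block the F test gave an adjusted p of 9.25e-10 for WOX11/12a and 0.0354 for WOX5a, and no call of either gene changed. Depth limits WOX5a, where 1 read is a large part of each value, and does not limit the late levels of WOX11/12a, which rest on 141 to 571 reads.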
